A study of Mus musculus with 10 samples.

Results

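The genes described here are 10 targets of Wnt signalling that are known from the pericentral zone of the liver lobule, namely Lgr5, Rnf43, Znrf3, Axin2, Nkd1, Tbx3, Sp5, Tcf7l2, Rhbg and Lhpp. They were taken by symbol and are 10 of the 41388 genes in the count tables. Each of the 10 passed the filter on low values and is among the 13444 genes tested. Polyadenylated RNA was sequenced from whole liver of male C57B/6J mice at an age of 12 weeks, with 1 library per mouse. WT Refed mice (n = 2) were fasted for 22 h and then given food for 2 h, as the labels describe them. The paper calls this group fed. WT Fasting mice (n = 3) and NAMPT LKO Fasting mice (n = 5) were fasted for 24 h according to the labels. The paper gives a shorter fast, and the labels were followed here. The WT animals were littermates with a floxed but intact Nampt gene (Nampt fl/fl) and no Cre. The NAMPT LKO animals had the same floxed alleles and in addition Cre under the albumin promoter, which the paper describes as a deletion specific to hepatocytes. Nampt in the other cells of the liver was not measured separately.

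In Wnt signalling, secreted Wnt ligands bind Frizzled and LRP5 or LRP6 receptors, beta-catenin escapes the destruction complex, and in the nucleus it joins TCF factors on target genes. Endothelial cells around the central vein release Wnt2, Wnt9b and R-spondin 3, so that hepatocytes near the central vein carry the strongest signal and express glutamine synthetase and other pericentral genes. Several targets are themselves brakes or boosters of the pathway, and their transcripts are therefore used as a readout of it. Whole-liver RNA holds no position in the lobule, so the pericentral label of these genes was not checked, and fewer pericentral cells cannot be told apart from less RNA per cell.

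Library totals ranged from 30603080 to 43434139 counted reads, and no pair of libraries held identical values. Nampt, the deleted gene, had a mean of 13.2 normalised CPM (SD 1.49) over the 5 fasted NAMPT LKO livers and of 92.4 (SD 42.3) over the 3 fasted WT livers. The log2 difference was -2.81 ± 0.22 (SE; adjusted p = 0.00102, edgeR's quasi-likelihood test with Benjamini-Hochberg adjustment), so each library matched its genotype label. NAMPT LKO mouse 5 stood apart from the other libraries. It had 21.1% of its counts on the mitochondrial genome against 7.42 to 12.9% elsewhere, and its deviations from the gene means followed GC content (Spearman rho -0.587 across 13369 genes, against -0.0367 to 0.268 elsewhere). Some values that rest on this library are given below without it or with the GC trend removed, but not every one.

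Levels between genes were compared as RPKM, the read count scaled by exonic length and library total. In WT Refed livers Lhpp was the most abundant member at 42.2 ± 4.10 RPKM (SD, n = 2), followed by Tbx3 at 14.4 ± 0.646 and Rnf43 at 5.71 ± 0.790. Rhbg stood at 3.57, Sp5 at 2.66, Tcf7l2 at 2.45, Axin2 at 2.00, Nkd1 at 1.78 and Znrf3 at 1.24 RPKM, and Lgr5, the receptor best known as a stem cell marker, was lowest at 0.451 ± 0.0858 RPKM. Among neighbours in that order only the ranges of Sp5 and Tcf7l2 overlapped. Lhpp and Tbx3 held the first and second place and Lgr5 the last in all 3 groups. Sp5 moved from place 5 in WT Refed livers to place 9 in both fasting groups, at 1.29 ± 0.312 RPKM (n = 3) in WT Fasting and 0.987 ± 0.534 (n = 5) in NAMPT LKO Fasting livers. In WT Fasting livers the ranges of Rhbg, Rnf43 and Tcf7l2 overlapped from one to the next, as did those of Axin2, Znrf3, Nkd1 and Sp5. In NAMPT LKO Fasting livers the neighbours that stayed apart were Lhpp and Tbx3, and Tcf7l2 and Znrf3.

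The promoters of Sp5, Rnf43 and Axin2 are shown because Sp5 had the largest fitted difference of the members in both comparisons against WT Refed livers, Rnf43 was the member called, and Axin2 is the common reporter of the pathway. RefSeq start sites of GRCm38.p6 gave windows of 300 bases, from 250 before to 50 after a start, for 5 of the 10 members in 7 windows. CTTTGA, the core of many TCF sites, was searched on both strands and is in capitals. It occurred in 5257 of 32851 windows of all genes (16%) and in 1 of the 7 member windows, that of Sp5, with matches that begin at -204 and -104 from the start site. A match is only a match of letters, and these windows hold no distal sites. The windows are chr2:70474673-70474972, chr11:87662837-87663136 and chr11:108920099-108920398, all on the plus strand.
Sp5: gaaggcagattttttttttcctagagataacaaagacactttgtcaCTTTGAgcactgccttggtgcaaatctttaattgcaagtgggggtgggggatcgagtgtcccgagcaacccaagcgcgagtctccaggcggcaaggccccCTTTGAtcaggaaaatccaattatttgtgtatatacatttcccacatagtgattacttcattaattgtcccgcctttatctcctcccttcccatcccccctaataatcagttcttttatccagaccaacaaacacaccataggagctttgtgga
Rnf43: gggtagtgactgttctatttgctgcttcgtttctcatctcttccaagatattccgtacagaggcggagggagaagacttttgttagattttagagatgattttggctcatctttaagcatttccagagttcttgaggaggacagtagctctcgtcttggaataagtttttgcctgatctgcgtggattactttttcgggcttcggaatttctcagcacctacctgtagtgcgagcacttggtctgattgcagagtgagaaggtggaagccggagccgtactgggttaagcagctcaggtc
Axin2: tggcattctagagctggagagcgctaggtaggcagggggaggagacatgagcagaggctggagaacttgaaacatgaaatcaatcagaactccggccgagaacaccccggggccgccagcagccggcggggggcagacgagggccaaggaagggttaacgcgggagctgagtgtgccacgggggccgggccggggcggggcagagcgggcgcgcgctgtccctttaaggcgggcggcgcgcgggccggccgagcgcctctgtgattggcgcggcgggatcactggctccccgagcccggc

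The first comparison asked how the targets differed between fasted and refed WT livers. Rnf43, Tbx3 and Sp5 were lower in each of the 3 WT Fasting livers than in both WT Refed livers, and Znrf3 was higher, but no difference passed the test across all genes. With edgeR's quasi-likelihood test 0 of the 10 members were called at an adjusted p of 0.05, against 7.04% of all genes tested. An unadjusted p under 0.05 was reached by 3 members, against 22.3% of all genes. The groups did not overlap for 4 members, against 49.7% of all genes, so in each count the members lay near or below the background. Members called by other tests were 4 by limma's voomWithQualityWeights (Lgr5, Rnf43, Sp5 and Tbx3), 3 in the fit of these groups alone (Rnf43, Sp5 and Tbx3), 1 by DESeq2 (Rnf43) and 0 by edgeR's exact test. These tests also called more of all genes: 3331 of 13444, 1649 of 13064, 1646 of 13444 and 1198 of 13444 in that order, against 946 of 13444. The median log2 difference of the members was 0.00087, beside 0.04 over all genes.

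**Figure D1:**
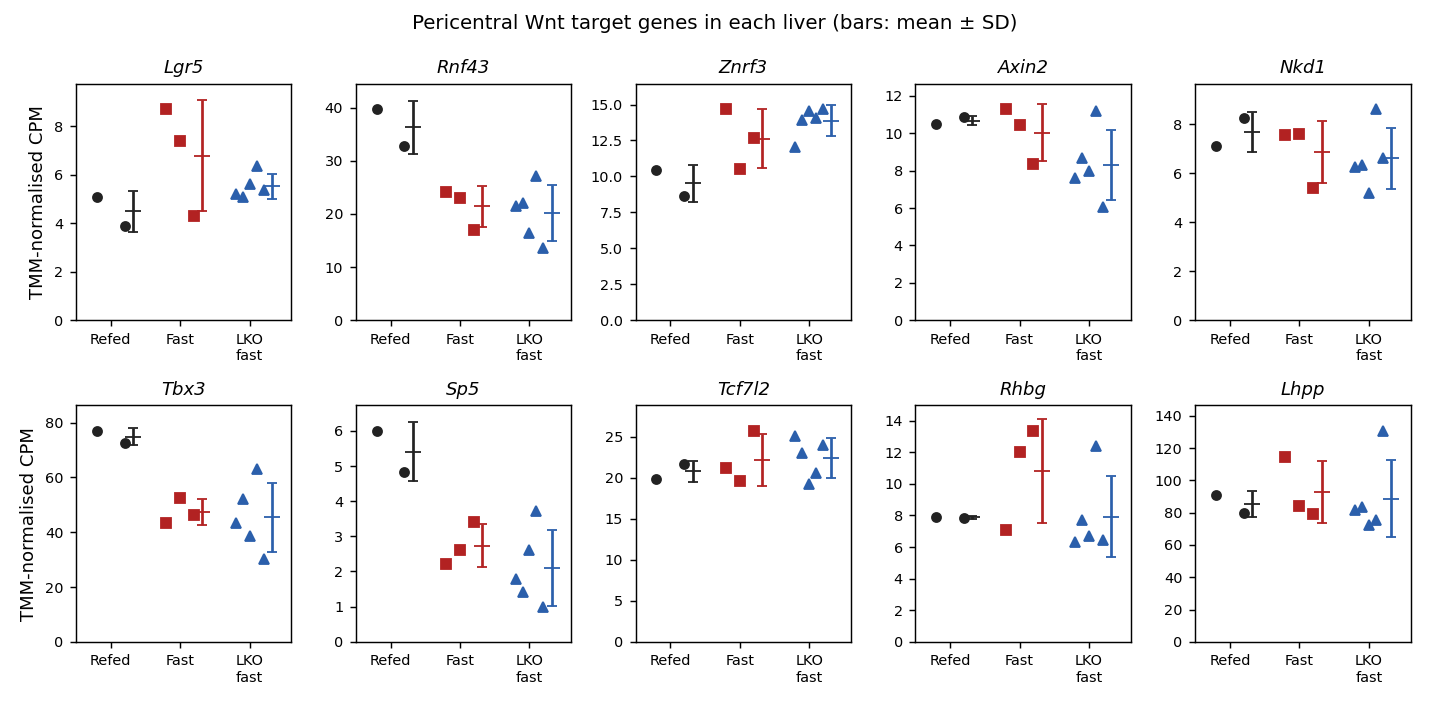
Each panel plots 1 gene, with TMM-normalised CPM on a linear axis from 0 and 1 point per liver for WT Refed (n = 2), WT Fasting (n = 3) and NAMPT LKO Fasting (n = 5), and bars for the mean ± SD. Rnf43, Tbx3 and Sp5 lie lower in both fasting groups than in the refed livers, for example Rnf43 at 13.6 to 27.3 against 32.8 and 39.8 CPM, while Tcf7l2 lies at 19.2 to 25.7 CPM throughout.

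The membrane regulators were taken first, in CPM, the counts scaled by library total, further scaled by TMM factors (normalised CPM). Rnf43 (chr11:87662722-87735539, plus strand, 11 exon blocks) encodes a ubiquitin ligase that removes Frizzled receptors from the cell surface. Rnf43 measured 39.8 and 32.8 normalised CPM in the WT Refed livers and 24.1, 23.1 and 17.0 in the WT Fasting livers. The groups did not overlap, and the fitted log2 difference was -0.76 ± 0.26 (SE; 0.589-fold, 95% interval 0.397 to 0.874; adjusted p = 0.106, edgeR's quasi-likelihood test). NAMPT LKO mouse 5 is in neither group but is part of the shared fit. Without it the adjusted p of Rnf43 was 0.0313, and with the GC trend removed that value was 0.0433, both by the same test. Znrf3 (chr11:5276324-5444847, minus strand), the paralog with the same role, measured 10.4 and 8.60 in WT Refed and 14.7, 10.5 and 12.7 normalised CPM in WT Fasting livers. Its lowest fasting liver lay just above the higher refed liver, and the log2 difference was 0.41 ± 0.17 (SE; adjusted p = 0.183, edgeR's quasi-likelihood test). Lgr5 (chr10:115450311-115587780, minus strand), a receptor for R-spondins that protects Frizzled, measured 5.09 and 3.90 in WT Refed and 8.72, 7.38 and 4.28 normalised CPM in WT Fasting livers. The third fasting liver lay between the refed livers, and the log2 difference of Lgr5 was 0.59 ± 0.27 (SE; adjusted p = 0.226, edgeR's quasi-likelihood test). Without WT Fasting mouse 3 the log2 difference of Lgr5 was 0.83 and its adjusted p 0.0430 (edgeR's quasi-likelihood test), so within that test the call changed with 1 library. With every library voomWithQualityWeights called Lgr5 (adjusted p = 0.0331).

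Axin2 and Nkd1 act inside the cell. Axin2 (chr11:108920349-108950783, plus strand), a scaffold of the destruction complex and a widely used reporter of Wnt activity, measured 10.5 and 10.9 normalised CPM in the WT Refed livers. The WT Fasting livers had 11.3, 10.4 and 8.34, so the groups overlapped. The log2 difference of Axin2 was -0.09 ± 0.23 (SE; adjusted p = 0.855, edgeR's quasi-likelihood test), with a 95% interval of the fold from 0.662 to 1.33. Nkd1 (chr8:88521344-88594887, plus strand), which binds Dishevelled and dampens the signal, measured 7.10 and 8.28 in WT Refed and 7.57, 7.63 and 5.42 normalised CPM in WT Fasting livers. Its groups overlapped too, with a log2 difference of -0.16 ± 0.23 (SE; adjusted p = 0.722, edgeR's quasi-likelihood test) and an interval of the fold from 0.632 to 1.26. Axin2 shares 209 exonic bases with the antisense gene Gm11670, which had 0 to 8 counts per library, and Tbx3 shares 115 with Tbx3os1, which had 6 to 20.

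Among the transcription factors, Tbx3 (chr5:119670669-119684724, plus strand), a T-box repressor that marks pericentral hepatocytes, measured 77.1 and 72.6 normalised CPM in WT Refed livers and 43.4, 52.6 and 46.1 in WT Fasting livers. The groups were apart by a wide gap, and the log2 difference of Tbx3 was -0.66 ± 0.24 (SE; 0.633-fold, 95% interval 0.436 to 0.919; adjusted p = 0.137, edgeR's quasi-likelihood test). In the fit of these groups alone its adjusted p was 0.0156, and without NAMPT LKO mouse 5 it was 0.0327, by the same test. Sp5 (chr2:70474923-70477729, plus strand, 2 exon blocks), a zinc finger factor that is induced by beta-catenin in many tissues, measured 6.01 and 4.82 in WT Refed and 2.20, 2.60 and 3.40 normalised CPM in WT Fasting livers. Every fasting liver lay below both refed livers, and Sp5 had the largest fitted difference of the members at a log2 value of -0.98 ± 0.45 (SE; adjusted p = 0.224, edgeR's quasi-likelihood test). Its counts ran from 33 to 268 per library, the lowest of the members, and the interval of the fold reached from 0.256 to 1.00. Tcf7l2 (chr19:55741810-55933654, plus strand), the TCF factor that carries beta-catenin to DNA, measured 19.9 and 21.6 in WT Refed and 21.1, 19.5 and 25.7 normalised CPM in WT Fasting livers. Those groups overlapped, with a log2 difference of 0.09 ± 0.16 (SE; adjusted p = 0.779, edgeR's quasi-likelihood test) and an interval of the fold from 0.839 to 1.36.

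Rhbg and Lhpp are the members with a metabolic role. Rhbg is an ammonium transporter of pericentral hepatocytes, and its row in the files spans chr3:88242874-88287210 on the minus strand. That row carries an older identifier and was matched by position: it covers 100% of the Rhbg exon bases of the GENCODE annotation, while 67.1% of its bases are also exons of the overlapping locus Gm38392. It also shares 113 exonic bases on the same strand with Tsacc, which had 34 to 53 counts per library, so the level of Rhbg is uncertain. Rhbg measured 7.93 and 7.82 in WT Refed and 7.09, 12.0 and 13.4 normalised CPM in WT Fasting livers, with the first fasting liver below and the others above the refed livers. The log2 difference of Rhbg was 0.46 ± 0.32 (SE; adjusted p = 0.442, edgeR's quasi-likelihood test). Lhpp (chr7:132610638-132706420, plus strand) encodes a phosphatase that acts on phosphohistidine and pyrophosphate, and it measured 91.0 and 79.6 in WT Refed and 115, 84.1 and 79.5 normalised CPM in WT Fasting livers. Its groups overlapped, with a log2 difference of 0.12 ± 0.25 (SE; adjusted p = 0.823, edgeR's quasi-likelihood test).

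The second comparison asked whether the targets differed in fasted livers without hepatocyte Nampt. No member differed detectably: edgeR's quasi-likelihood test called 0 of the 10, against 0.00744% of all genes, which is Nampt alone. An unadjusted p under 0.05 was reached by 0 members, against 6.03% of all genes, and the groups overlapped for all 10, against 3.99% of all genes without overlap. DESeq2, edgeR's exact test and limma's voomWithQualityWeights also called 0 members, and 0 were called with any library left out. The median log2 difference of the members was -0.08, beside 0.00025 over all genes. The 3 comparisons share libraries, so the values of a gene in them are not independent.

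The membrane regulators in NAMPT LKO Fasting livers lay within or close to the WT Fasting range. Lgr5 measured 5.22, 5.06, 5.63, 6.38 and 5.35 normalised CPM in the 5 livers, all between the lowest and the highest WT Fasting liver. It varied less in this group (coefficient of variation 9.38%) than in WT Fasting livers (33.5%), and the log2 difference was -0.29 ± 0.21 (SE). Rnf43 measured 21.5, 22.0, 16.3, 27.3 and 13.6, with mouse 4 above and mice 3 and 5 below all WT Fasting livers, and its log2 difference was -0.09 ± 0.21 (SE). Without NAMPT LKO mouse 5 the log2 difference of Rnf43 was 0.024. Znrf3 measured 12.0, 13.9, 14.6, 14.1 and 14.7, of which 1 liver lay above the WT Fasting range, and its log2 difference was 0.13 ± 0.13 (SE). The 95% intervals of the fold were 0.589 to 1.13 for Lgr5, 0.683 to 1.30 for Rnf43 and 0.893 to 1.35 for Znrf3. Fold differences within these intervals are compatible with the values of these mice, and the intervals are no limit of what the test could call.

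The cytoplasmic regulators and the transcription factors overlapped as well. Axin2 measured 7.59, 8.65, 7.99, 11.2 and 6.06 normalised CPM in NAMPT LKO Fasting livers, with 3 of the 5 below all WT Fasting livers, and its log2 difference was -0.27 ± 0.18 (SE; interval of the fold 0.626 to 1.10). Nkd1 measured 6.26, 6.35, 5.20, 8.63 and 6.62, a log2 difference of -0.05 ± 0.18 (SE). Tbx3 measured 43.3, 52.2, 38.7, 63.1 and 30.2, with a log2 difference of -0.06 ± 0.20 (SE), which was 0.057 without NAMPT LKO mouse 5. For Tbx3, mouse 4 lay above and mice 1, 3 and 5 lay below all 3 WT Fasting livers. Sp5 measured 1.78, 1.41, 2.62, 3.72 and 0.976, with 3 livers below and 1 above the WT Fasting range, and its log2 difference was -0.37 ± 0.37 (SE; interval of the fold 0.440 to 1.35). Tcf7l2 measured 25.1, 23.0, 19.2, 20.5 and 24.0, a log2 difference of 0.01 ± 0.13 (SE). Tcf7l2 had the narrowest interval of the members here, from 0.833 to 1.22 as a fold.

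For the metabolic members, Rhbg measured 6.32, 7.72, 6.70, 12.4 and 6.41 normalised CPM in NAMPT LKO Fasting livers. Of these, 3 lay below all WT Fasting livers, and the log2 difference of -0.45 ± 0.25 (SE; adjusted p = 0.837, edgeR's quasi-likelihood test) was the largest of the members in this comparison. Lhpp measured 81.4, 83.5, 72.3, 75.6 and 131, so that mouse 5 alone exceeded the WT Fasting range, with a log2 difference of -0.06 ± 0.20 (SE). Adjusted p-values of the 10 members lay between 0.837 (Rhbg) and 0.986 (Tcf7l2) by edgeR's quasi-likelihood test.

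**Figure D2:**
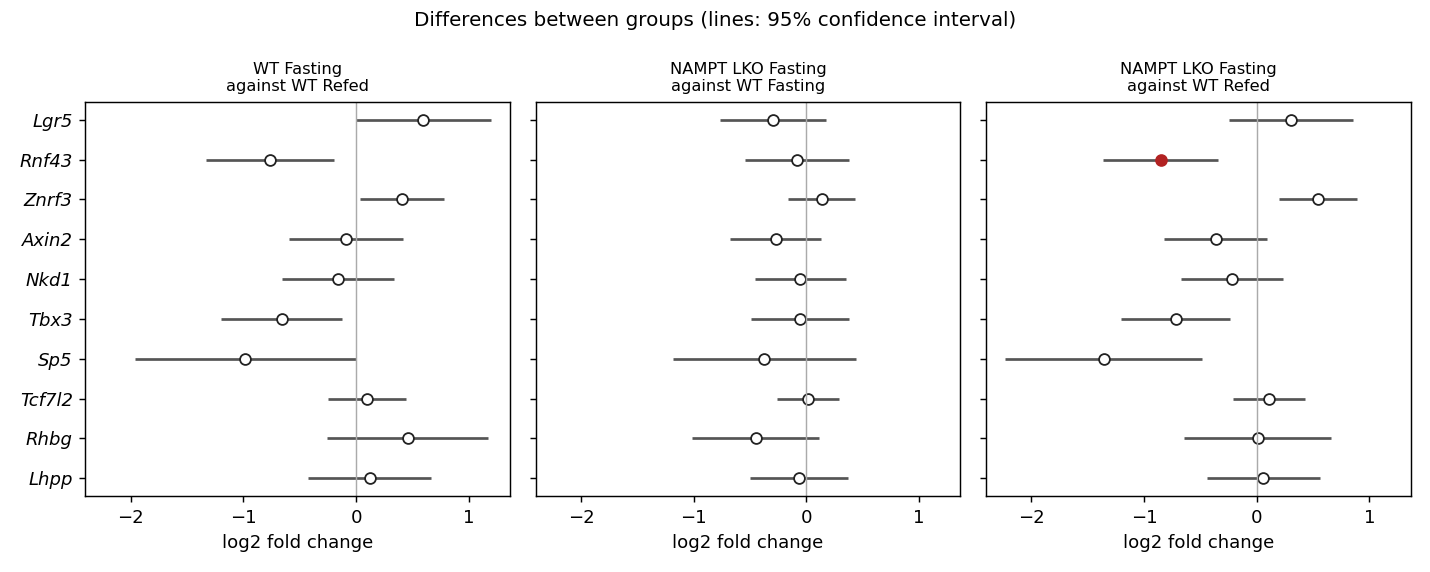
Log2 fold changes of the 10 genes (points) with their 95% confidence intervals (lines) in each comparison, where a filled point has an adjusted p at or under 0.05. In NAMPT LKO Fasting against WT Fasting livers every interval includes 0, and the single filled point is Rnf43 in NAMPT LKO Fasting against WT Refed livers, at -0.85.

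NAMPT LKO Fasting livers were also set against WT Refed livers, a comparison in which genotype and feeding differ together and cannot be told apart. Rnf43 fell in it, with a log2 difference of -0.85 ± 0.23 (SE; 0.555-fold, 95% interval 0.390 to 0.789; adjusted p = 0.0388, edgeR's quasi-likelihood test), and was lower in 5 of 5 livers. It was the 1 member of 10 called, against 11.2% of all genes. An unadjusted p under 0.05 was reached by 4 members, against 26.1% of all genes, and the same 4, Rnf43, Tbx3, Sp5 and Znrf3, did not overlap between groups, against 33.5%. The median log2 difference was -0.11, beside 0.03 over all genes. Tbx3 (log2 difference -0.72 ± 0.22, adjusted p = 0.0593), Sp5 (-1.36 ± 0.40, adjusted p = 0.0510) and Znrf3 (0.54 ± 0.16, adjusted p = 0.05004) narrowly missed the threshold of edgeR's quasi-likelihood test.

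The call of Rnf43 was lost with several single libraries left out. Without WT Refed mouse 1 or mouse 2, which leaves a single refed liver, its log2 difference was -0.72 or -0.99. In edgeR's quasi-likelihood test its adjusted p was 0.0564 without WT Fasting mouse 2. It was 0.0615, 0.0635 and 0.0751 without NAMPT LKO mice 1, 2 and 3 by the same test. Of all genes, 989 of 13418 and 1097 of 13403 were called without NAMPT LKO mice 2 and 3. Without NAMPT LKO mouse 5, 4 members were called, namely Rnf43, Tbx3, Sp5 and Znrf3, and without mouse 4 there were 3, namely Rnf43, Tbx3 and Sp5. Of all genes, 2835 of 13371 were called without mouse 5 and 1215 of 13418 without mouse 4, against 1510 of 13444 with every library. Without WT Fasting mouse 2 (1188 of 13413 genes called), or without NAMPT LKO mouse 1 (1177 of 13348), the 1 member called was Znrf3 in place of Rnf43. DESeq2, edgeR's exact test, voomWithQualityWeights and the removal of the GC trend each called Rnf43, Tbx3, Sp5 and Znrf3, while the fit of these groups alone called 0. Of all 13444 genes the first 4 called 2242, 1731, 4281 and 2160 in that order, and the fit of these groups alone called 1139 of 13242. The remaining members, Axin2, Nkd1, Lgr5, Tcf7l2, Rhbg and Lhpp, overlapped between these groups, with log2 differences from -0.36 (Axin2) to 0.30 (Lgr5).

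The members also varied among the 5 NAMPT LKO Fasting livers. Sp5 had a coefficient of variation of 51.8% and ranged 6.16-fold over all 10 livers, the widest of the members, whereas Tcf7l2 ranged 1.34-fold. Sp5, Tbx3, Rnf43 and Axin2 were each highest of the 5 livers in mouse 4 and lowest in mouse 5. After the GC trend of every library was taken out, mouse 4 was still the highest for all 4 genes. Mouse 5 was then the lowest for Tbx3 alone, at 35.1 normalised CPM, while the lowest was mouse 3 for Rnf43 (15.7, against 17.1 in mouse 5), mouse 2 for Sp5 (with mouse 5 at 1.63) and mouse 1 for Axin2 (7.28, against 7.83). The low place of mouse 5 for Rnf43, Sp5 and Axin2 thus changed with the GC trend. Lhpp in mouse 5, at 131 normalised CPM, was 162 with the trend removed.

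**Figure D3:**
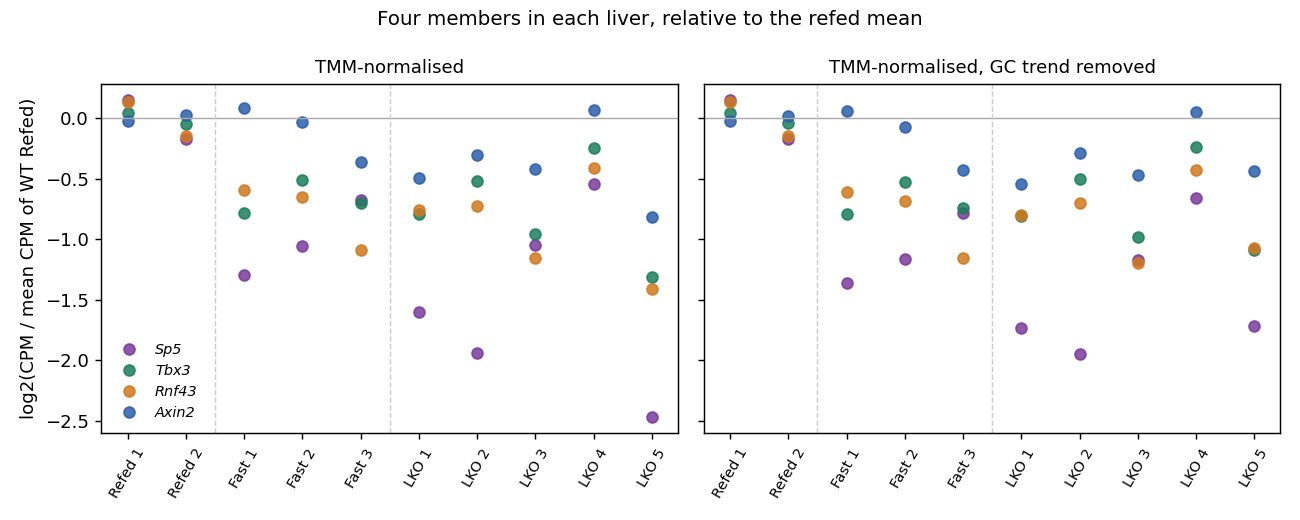
Each point is 1 liver's log2 ratio of normalised CPM to the WT Refed mean, for Sp5, Tbx3, Rnf43 and Axin2, with TMM scaling alone (left) and after the GC trend of every library was taken out (right). NAMPT LKO mouse 4 is the highest of its group for all 4 genes on both sides, and mouse 5 is the lowest for all 4 only on the left.

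The other genes of the Wnt pathway were read from a list of 84 ligands, secretion factors, receptors, extracellular inhibitors, destruction complex members and nuclear partners, of which 50 were tested. Between WT Fasting and WT Refed livers 3 of the 50 rose and 3 fell (edgeR's quasi-likelihood test), which is 12% against the 7.04% of all genes, and their median log2 difference was 0.14 beside 0.04 over all genes. Lrp5 (log2 difference 0.61, adjusted p = 0.0112) and Lrp6 (0.55, adjusted p = 0.0397), the co-receptors of Wnt, rose by edgeR's quasi-likelihood test, as did Tle2 (0.85, adjusted p = 0.0396), a co-repressor that binds TCF factors. The receptor Fzd7 (-0.95, adjusted p = 0.0333), the ligand Wnt5b (-0.94, adjusted p = 0.0251) and the co-repressor Tle3 (-1.09, adjusted p = 0.0264) fell by the same test. Without either WT Refed mouse, which leaves a single refed liver, all 6 kept their direction. Lrp5 was then at 0.59 or 0.61 and Fzd7 at -0.94 or -0.97. Lrp6, Tle2, Fzd7, Wnt5b and Tle3 missed the threshold without WT Fasting mouse 1 or mouse 2. Without WT Fasting mouse 3 Lrp6, Fzd7, Wnt5b and Tle3 missed it. Lrp6 and Tle2 also missed it without NAMPT LKO mouse 2, 3 or 4. Their adjusted p was then 0.0524 to 0.121 in edgeR's quasi-likelihood test. Fewer of all genes were called as well, namely 538 of 13416, 466 of 13413 and 786 of 13329 without WT Fasting mice 1, 2 and 3. That compares with 946 of 13444 with every library. With other settings of that test Lrp6 missed the threshold with filterByExpr (adjusted p = 0.05005) and with no filter (0.0717), and Tle2 with library size alone (0.0971).

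In WT Fasting against WT Refed livers the endothelial ligands Wnt2 (log2 difference -0.22, adjusted p = 0.671) and Wnt9b (-0.16, adjusted p = 0.834) and the R-spondin Rspo3 (0.39, adjusted p = 0.487) did not pass edgeR's quasi-likelihood test. Ctnnb1, which encodes beta-catenin, was at 143 ± 0.283 normalised CPM (SD, n = 2) in WT Refed and 142 ± 15.6 (n = 3) in WT Fasting livers. Glul (glutamine synthetase), the classical pericentral target, was at 806 ± 22.6 and 795 ± 80.0, and Cyp2e1, a pericentral cytochrome, differed by 0.34 on the log2 scale (adjusted p = 0.417, edgeR's quasi-likelihood test). Notum, a secreted Wnt deacylase and itself a target, differed by 0.21 (adjusted p = 0.629) by the same test. Of 18 other pericentral hepatocyte genes, 1 rose in this comparison, the nuclear receptor Nr1i3 (0.72, adjusted p = 0.0392, edgeR's quasi-likelihood test). Its log2 difference was 0.86 or 0.58 without WT Refed mouse 1 or 2, which leaves a single refed liver. Its call was lost without WT Fasting mouse 1 or 2 and without NAMPT LKO mouse 2 or 3 (adjusted p 0.0588 to 0.118, same test). The call of Nr1i3 was also lost with library size alone (adjusted p = 0.0971) and with only these groups in the fit (0.0503), by the same test of edgeR. Of 18 periportal genes 2 rose, the gluconeogenic genes Pck1 and G6pc, while 7.04% of all genes were called.

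In NAMPT LKO Fasting against WT Fasting livers 0 of the 50 pathway genes were called by edgeR's quasi-likelihood test. Notum (-0.42, adjusted p = 0.827), Rspo1 (0.88, adjusted p = 0.798) and Wls (0.43, adjusted p = 0.801) had an unadjusted p under 0.05 in that test, as did 6.03% of all genes. Of the 18 other pericentral genes 14 lay below 0, with a median log2 difference of -0.14, and 0 were called. Of the 18 periportal genes 10 lay below 0 (median -0.07), as did 6 of the 8 hepatocyte markers (median -0.11), beside a median of 0.00025 over all genes. In NAMPT LKO Fasting against WT Refed livers 4 of the 50 rose and 3 fell (14%, against 11.2% of all genes). Lrp5 (0.47, adjusted p = 0.0192), Lrp6 (0.72, adjusted p = 0.00652), Fzd7 (-0.81, adjusted p = 0.0311), Wnt5b (-0.88, adjusted p = 0.0157) and Tle3 (-1.10, adjusted p = 0.0115) were called by edgeR's quasi-likelihood test in the direction they had in WT Fasting livers. The R-spondin Rspo1 (1.85, adjusted p = 0.0108) and Wls (0.76, adjusted p = 0.0293), which carries Wnt ligands to the cell surface, were the others that rose by that test. Rspo1 was scarce, with 16 to 74 counts per library, and exceeded 1 CPM only in NAMPT LKO Fasting livers. It was thus tested only through the group where it is high. Its differences from WT Fasting and WT Refed livers are therefore no support for a rise, although it is counted among the 4. Without either WT Refed mouse, which leaves a single refed liver, all 7 kept their direction. Fzd7 missed the threshold without NAMPT LKO mouse 2 and Wls without mouse 3 or mouse 4 (adjusted p 0.0543 to 0.0656, edgeR's quasi-likelihood test). Of all genes, 989 of 13418, 1097 of 13403 and 1215 of 13418 were called without NAMPT LKO mice 2, 3 and 4, against 1510 of 13444 with every library. Wls also missed it with library size alone (adjusted p = 0.0722), no filter (0.0927), only these groups in the fit (0.0512) and the GC trend removed (0.0512), and Lrp5 with library size alone (0.0931) and no filter (0.0760), by the same test of edgeR. Of the 18 periportal genes 4 were called in this comparison, all higher (Pck1, G6pc, Pigr and Sds), against 11.2% of all genes called. Cyp2c29, a cytochrome, was the 1 of 18 other pericentral genes called (-0.63, adjusted p = 0.0318, edgeR's quasi-likelihood test). Its call was lost without NAMPT LKO mouse 1 (adjusted p = 0.0614) and with only these groups in the fit (0.0569), by the same test. Without WT Refed mouse 1 or 2, its log2 difference was -0.57 or -0.70.

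**Figure D4:**
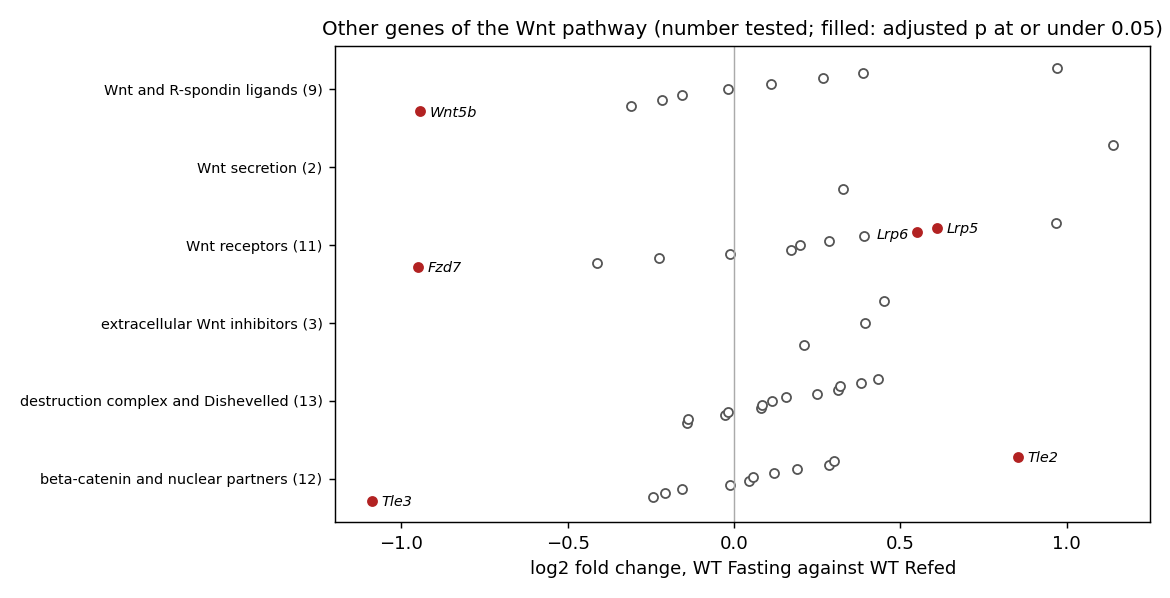
Log2 fold change of the 50 other Wnt pathway genes tested, WT Fasting against WT Refed, in 6 groups by role, with 1 point per gene and filled points for an adjusted p at or under 0.05. The points spread to both sides of 0 in most groups, and the 6 filled ones run from Tle3 at -1.09 to Tle2 at 0.85.

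The summed levels of several lists of cell type markers differed in range between the groups, while those of hepatocyte and red blood cell markers overlapped. Their part in the values above was not tested. The summed level of 13 endothelial markers was 299 to 305 normalised CPM in WT Refed, 345 to 369 in WT Fasting and 317 to 401 in NAMPT LKO Fasting livers. That of 6 Kupffer cell markers was 141 to 179, 185 to 371 and 124 to 294, and that of 9 stellate cell markers was 209 to 210, 213 to 273 and 256 to 327. The 6 cholangiocyte markers summed to 20.2 to 22.8, 15.3 to 22.7 and 34.3 to 54.5, so NAMPT LKO livers lay above both WT groups. The 8 hepatocyte markers summed to 73560 to 77580, 75230 to 102400 and 62840 to 109400. The 6 lymphocyte markers summed to 2.33 to 2.51, 2.91 to 4.46 and 2.89 to 3.77, with 1 of them at 0 in some library, and the 5 red blood cell markers to 508 to 1128, 427 to 1404 and 332 to 1294. No marker of these lists was at 0 in all libraries. In WT Fasting against WT Refed and in NAMPT LKO Fasting against WT Fasting livers 0 markers were called by edgeR's quasi-likelihood test, while 1 endothelial, 1 stellate and 2 cholangiocyte markers rose in NAMPT LKO Fasting against WT Refed livers.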

How the data were processed

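Liver RNA of 10 mice was sequenced as poly-A selected single reads. The submitters' processing notes name STAR 2.5.1a, featureCounts 1.4.6-p5 and GRCm38, and the study's methods give other versions of the aligner and counter. Per library, the authors deposited a raw read count for every Ensembl gene (unique, unambiguous alignments). CPM and RPKM were deposited beside it, and RPKM was used as deposited. The strand setting of the counting is not given in the sources used here, so overlapping and antisense genes are uncertain. Samples were grouped by their titles, and p-values measure the spread between mice.

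Symbols came from the GENCODE annotation of GRCm38 for 40254 of 41388 genes. Rhbg was matched by exon coordinates. A gene was tested if it exceeded 1 CPM in any library and was no rRNA gene (13444 genes). After TMM normalisation, a single edgeR 4.0.16 model (quasi-likelihood, R 4.3.3) gave every group its mean from all 10 libraries. The p-values were adjusted by Benjamini and Hochberg's method over all genes, where an adjusted p at or under 0.05 is a call. The intervals are 95% intervals of that fit. The procedure was tested on simulated data. Alternatives were limma 3.58.1 (voomWithQualityWeights, given in the study's methods), edgeR's exact test (given in its figure legends), DESeq2 1.42.0, other normalisations and filters, the compared groups alone, a replicate block, each library left out and each library's loess trend with GC content (span 0.5) removed. GC content was missing for 75 tested genes, Rhbg among them, which kept their values there.

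The members, gene lists and tests were chosen with earlier results of these data known. The genes named are the 10 members, Nampt, and from the pathway and zonation lists the called genes of lowest p (up to 4 a list) and set anchors. Not every gene that this rule takes is printed. Promoter windows are from RefSeq.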

Additional observations from a re-analysis of the deposited data

Results flagged for a closer look

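Values were looked at again where, among the 5 NAMPT LKO Fasting livers, the highest or lowest lay far from its nearest neighbour for the range of the group, by Dixon's limit at 95%. Chance alone passes that limit in about 1 of 20 groups, and 4 of the 13 values compared passed it. Znrf3 was lowest in mouse 1 at 12.0 normalised CPM, below 13.9 to 14.7 in the others. Rhbg was highest in mouse 4 at 12.4, above 6.32 to 7.72. Lhpp was highest in mouse 5 at 131, above 72.3 to 83.5. Mouse 5 also had the highest mitochondrial share of its counts at 21.1%, and it is the library whose values also followed GC content.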

How the results depend on the processing

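The direction of Rnf43, Tbx3, Sp5 and Znrf3 against WT Refed livers held under every alternative run, while the number of calls did not. The cause was not tested. With 2 refed livers each call against them is uncertain.

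For WT Fasting against WT Refed livers 946 genes were called, against 1646 by DESeq2, 1516 with the GC trend removed, 3331 by voomWithQualityWeights and 1649 with only these groups in the fit. Members called were 0, against 1, 1, 4 and 3 in those settings. With each library left out in turn, 107 (without WT Refed mouse 2) to 2231 genes (without NAMPT LKO mouse 5) and 0 to 2 members were called. Library size alone moved the share of called genes that rose from 38.1% to 25.7%.

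For NAMPT LKO Fasting against WT Fasting livers 1 gene was called, against 24 by DESeq2, 24 by edgeR's exact test, 3 with filterByExpr, 3 with the GC trend removed, 2 with library size alone, 17 with no filter and 1 to 2 with a library left out. The sample titles state no pairing of mice by replicate number. Correlations of same-numbered deviations were 0.104, 0.0782 and 0.0971, and without values for differently numbered libraries they cannot decide whether mice were paired. With the number as a replicate block in the libraries numbered 1 to 3, 0 genes and 0 members were called, as in those 6 libraries with no replicate block.

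For NAMPT LKO Fasting against WT Refed livers 1510 genes were called, against 4281 by voomWithQualityWeights and 227 to 2835 with a library left out. Library size alone moved the share that rose from 41.4% to 26.1%. DESeq2 called 2242 genes, edgeR's exact test 1731, GC removal 2160, median-of-ratios factors 1516, no filter 1357 of 26175 and only these groups 1139 of 13242. Members called were 1, against 4 by voomWithQualityWeights, edgeR's exact test, DESeq2 and GC removal, 3 with no filter, 2 with median-of-ratios factors, 0 with only these groups and 0 to 4 with a library left out.

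Some uncalled log2 differences near 0 changed sign. Against WT Fasting these were Nkd1 (0.031) and Lhpp (0.060) with the GC trend removed and Tcf7l2 (-0.020) with library size alone. In NAMPT LKO Fasting against WT Refed livers they were Lhpp (-0.091 by voomWithQualityWeights, -0.058 with library size alone) and Rhbg (-0.00104 by DESeq2, -0.079 with library size alone, -0.000832 with median-of-ratios factors, -0.00349 with filterByExpr, -0.018 with no filter and -0.00165 with only these groups). Glul in WT Fasting against WT Refed livers was at 0.021 by voomWithQualityWeights. With a library left out, the ranges that crossed 0 were -0.20 to 0.017 for Axin2, -0.038 to 0.18 for Tcf7l2, -0.072 to 0.21 for Lhpp, -0.11 to 0.052 for Ctnnb1 and -0.11 to 0.020 for Glul in WT Fasting against WT Refed, -0.23 to 0.024 for Rnf43, -0.20 to 0.027 for Nkd1, -0.21 to 0.057 for Tbx3, -0.068 to 0.14 for Tcf7l2 and -0.25 to 0.12 for Lhpp in NAMPT LKO Fasting against WT Fasting, and -0.21 to 0.078 for Rhbg and -0.12 to 0.14 for Lhpp in NAMPT LKO Fasting against WT Refed livers.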
